A study of Homo sapiens with 22 samples.

Results

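CXCL9, CXCL10 and CXCL11 are the 3 interferon-induced chemokines that bind CXCR3, and they were followed here in HN-6, an established line of human squamous carcinoma cells of the head and neck. The 3 genes were found by their symbols among 83250 symbols that the 4 gene tables of the study list between them. RNA was poly(A)-selected and sequenced from strand-specific libraries. Each of the 22 libraries, controls included, came from cells that received human IFN-β at 1000 U/ml for 24 h before collection, so no group shows the chemokines without added interferon.

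The study lowered SMYD3, a lysine methyltransferase, in 3 ways and UHRF1, a reader of hemimethylated DNA that directs maintenance methylation, in 1 way. The groups were the SMYD3 knockout line 5-3, which is 1 clone, against parental HN-6 cells (3 libraries each), the siRNA si1SMYD3 against a control siRNA, siNC (3 each), the SMYD3-targeting antisense oligonucleotide (ASO), ASO081, with PBS, a saline buffer, as its control (2 each), and an siRNA against UHRF1 against a second set of siNC libraries (3 each). The siRNA and ASO treatments lasted 72 h. The ASO control was PBS, so an ASO without a target in the cell was not part of the comparison. The design text calls the replicates biological. The comparisons ask whether loss of SMYD3 or UHRF1 changes interferon-response genes in these tumour cells.

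CXCR3 is a receptor on activated T cells and natural killer cells, and its ligands draw these cells into inflamed tissue and tumours. Type I interferon acts through IFNAR1 and IFNAR2, the kinases JAK1 and TYK2, and transcription factors that bind interferon-stimulated response elements (ISRE) in target promoters. Interferon-γ acts through gamma-activated sites (GAS), and CXCL9 is known above all as an interferon-γ target. NF-kB adds to the induction of these chemokines. In tumours, CXCL9 and CXCL10 often come from myeloid cells as well as from cancer cells.

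The 3 genes lie side by side on the minus strand of chromosome 4 (GRCh38, GENCODE release 29), in a block of 40.1 kb. CXCL9 spans 76001275 to 76007488, CXCL10 spans 76021117 to 76023497 and CXCL11 spans 76033682 to 76041415. CXCL10 and CXCL11 lie inside ART3, a gene on the plus strand, and share 0 exonic bases with it. CXCL9 overlaps the antisense gene AC112719.2, again with 0 exonic bases shared. The 250 bases before each transcription start, from RefSeq on GRCh38.p14, are shown because the 3 genes responded by different amounts. The RefSeq start of CXCL11 lies inside the longer gene span of GENCODE. Capitals mark matches, in either strand, to the ISRE core GAAANNGAAA, to the GAS letters TTCNNNGAA or to the NF-kB consensus. The sequences run 5′ to 3′ on the minus strand, at chr4:76007510-76007759 for CXCL9, chr4:76023498-76023747 for CXCL10 and chr4:76036071-76036320 for CXCL11.

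CXCL9: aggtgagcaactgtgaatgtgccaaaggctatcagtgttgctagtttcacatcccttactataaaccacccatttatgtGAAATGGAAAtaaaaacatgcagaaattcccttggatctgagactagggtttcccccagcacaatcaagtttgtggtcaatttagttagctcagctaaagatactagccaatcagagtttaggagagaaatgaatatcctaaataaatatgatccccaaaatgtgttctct
CXCL10: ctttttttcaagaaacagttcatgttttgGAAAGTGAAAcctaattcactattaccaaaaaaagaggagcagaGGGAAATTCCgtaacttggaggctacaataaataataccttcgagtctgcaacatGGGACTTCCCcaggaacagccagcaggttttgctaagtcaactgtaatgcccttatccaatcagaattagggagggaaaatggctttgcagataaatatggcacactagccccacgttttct
CXCL11: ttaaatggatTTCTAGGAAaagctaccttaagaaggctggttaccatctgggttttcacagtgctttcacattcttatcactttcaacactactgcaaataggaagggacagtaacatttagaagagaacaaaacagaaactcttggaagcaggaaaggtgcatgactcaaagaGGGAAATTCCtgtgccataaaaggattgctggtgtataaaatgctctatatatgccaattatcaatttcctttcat

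The CXCL10 window held an ISRE core, GAAAGTGAAA, from 221 to 212 bases before the start, and the NF-kB consensus at 2 places, from 177 to 168 and from 122 to 113 bases before the start. The CXCL9 window held an ISRE core, GAAATGGAAA, from 171 to 162 bases before the start. The CXCL11 window held the GAS letters TTCTAGGAA from 240 to 232 bases before the start and an NF-kB match from 76 to 67 bases before it. That NF-kB match, GGGAAATTCC, had the same 10 letters as the upstream match in CXCL10. Among 35116 promoter windows, 3.02% held the ISRE core, 6.57% the GAS letters and 5.21% the NF-kB consensus. The windows were poor in CpG, the dinucleotide that UHRF1-directed methylation acts on. CXCL9 and CXCL11 had 0 CpG and CXCL10 had 3, against a median of 11 over all windows, of which 29.3% had 3 or fewer. A letter match is a description of the window and does not show that a factor binds there.

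Depth, as total reads in genes, lay between 24783605 and 47702859 for the knockout libraries and their controls. It lay between 32441991 and 54121262 for the SMYD3 siRNA, between 30792923 and 32045158 for the ASO, and between 57588142 and 62921144 for the UHRF1 siRNA. Levels are given in CPM, the reads of a gene scaled to a fixed total of reads in genes. SMYD3 was lower in each of its 3 depletions, at 2.64 ± 0.514 CPM in the knockout clone and 10.4 ± 0.529 CPM in parental cells, 2.72 ± 0.120 CPM with si1SMYD3 and 15.8 ± 1.95 CPM with siNC (SD, n = 3 each), and 3.65 ± 0.662 CPM with ASO081 and 22.03 ± 0.966 CPM with PBS (SD, n = 2 each). UHRF1 stood at 2.17 ± 0.428 CPM with siUHRF1 and 66.1 ± 2.03 CPM with its siNC (SD, n = 3 each). The 2 targets were not independent. UHRF1 did not move in 1 direction over the 3 SMYD3 depletions. It was called lower with si1SMYD3 (log2 fold change -1.68 ± 0.14 SE, edgeR adjusted p = 4.26e-07), and called higher in the knockout clone (0.44 ± 0.03, limma adjusted p = 1e-08) and with the ASO (0.36 ± 0.06, edgeR adjusted p = 0.00119). UHRF1 averaged 2.91 ± 0.489 CPM with si1SMYD3, near its level with siUHRF1, and 10.3 ± 1.59 CPM with the siNC of that experiment (SD, n = 3 each). Its control level was 136 CPM in parental cells and 46.8 CPM with PBS. SMYD3 was at 8.19 ± 0.494 CPM with siUHRF1 and 12.8 ± 0.998 CPM with its siNC (SD, n = 3 each). Squamous epithelial markers summed to between 1108 and 3623 CPM in every library, carried by EPCAM, CDH1 and KRT5, while KRT14 stayed under 2 CPM. Of the 6 T and natural killer cell markers, CD3E and NKG7 reached at most 0.0441 and 0.0347 CPM, CD3D 0.350 CPM and PTPRC 0.383 CPM in the 3 tables used for them, while CD8A reached 2.27 CPM and CD4 10.9 CPM. The 6 summed to at most 11.8 CPM in any library.

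Removal of SMYD3 by knockout went with high CXCL10 and CXCL11 transcript in cells whose parental line held very little of either. CXCL10, a ligand induced by both interferon types, had 23.5, 24.7 and 23.5 CPM in the knockout clone, against 0.363, 0.685 and 0.551 CPM in parental cells. Those parental levels rest on 9, 24 and 20 reads, and the knockout levels on 843, 1179 and 651. CXCL11, the ligand with the highest affinity for CXCR3, had 22.8, 25.3 and 22.8 CPM in the knockout clone, against 0.767, 1.14 and 0.854 CPM in parental cells. Every knockout library was above every parental library for both genes. The knockout table gives read counts scaled by the authors, so limma was run on log2(value + 1) of the deposited values. CXCL10 was higher by a log2 fold change of 5.64 ± 0.17 (SE, adjusted p = 2.22e-13), rank 10 of 16948 genes from the largest rise. CXCL11 was higher by 4.85 ± 0.14 on the same scale (adjusted p = 7.18e-14), at rank 30. The 2 genes measured were both called higher, in a comparison in which 84.6% of all genes tested were called in either direction, 42.1% were called higher and 14.4% were called higher by a log2 fold change of at least 1. In 35.3% of the genes every knockout library was above every parental library. CXCL9 was not analysed in the knockout comparison.

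The knockout clone and the parental libraries also differed in other respects. Mitochondrial genes took 4.82% to 4.88% of reads in the knockout clone and 14.9% to 15.7% in parental cells. The fit without those genes again gave 5.64 and 4.85. The deposited values were not rescaled for that fit, so it could not give other log2 fold changes. Myeloid markers, which mark another known source of these chemokines, summed to 294 to 313 CPM in the knockout clone and 50.4 to 54.0 CPM in parental cells over 5 of 6 listed genes. CD68, a lysosomal protein gene, carried nearly all of that sum, at up to 306 CPM, while CD14 and LYZ reached at most 3.51 and 1.16 CPM. CD68 was at 42.7 CPM or more in every library of the knockout table and under 2 CPM in all libraries outside it. The annotation behind each table was not given in the sources used here. Fibroblast markers went the other way, at 14.8 to 16.9 CPM in the knockout clone and 62.7 to 66.7 CPM in parental cells over 3 of 5 listed genes. Endothelial markers summed to 1.03 to 1.78 CPM in the knockout clone and 4.80 to 5.89 CPM in parental cells over 2 of 3 listed genes. T and natural killer cell markers, over CD8A and CD4 of 6 listed genes, summed to 0.0839 to 0.112 CPM in the knockout clone and 1.93 to 2.78 CPM in parental cells. The part of these 4 lists in the chemokine result was not tested. The knockout is 1 clone, so the lost gene and other differences of that clone cannot be told apart. In bulk RNA, a change in the number of cells that make a ligand and a change in RNA per cell cannot be told apart either, and this holds for all 4 comparisons.

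**Figure D1:**
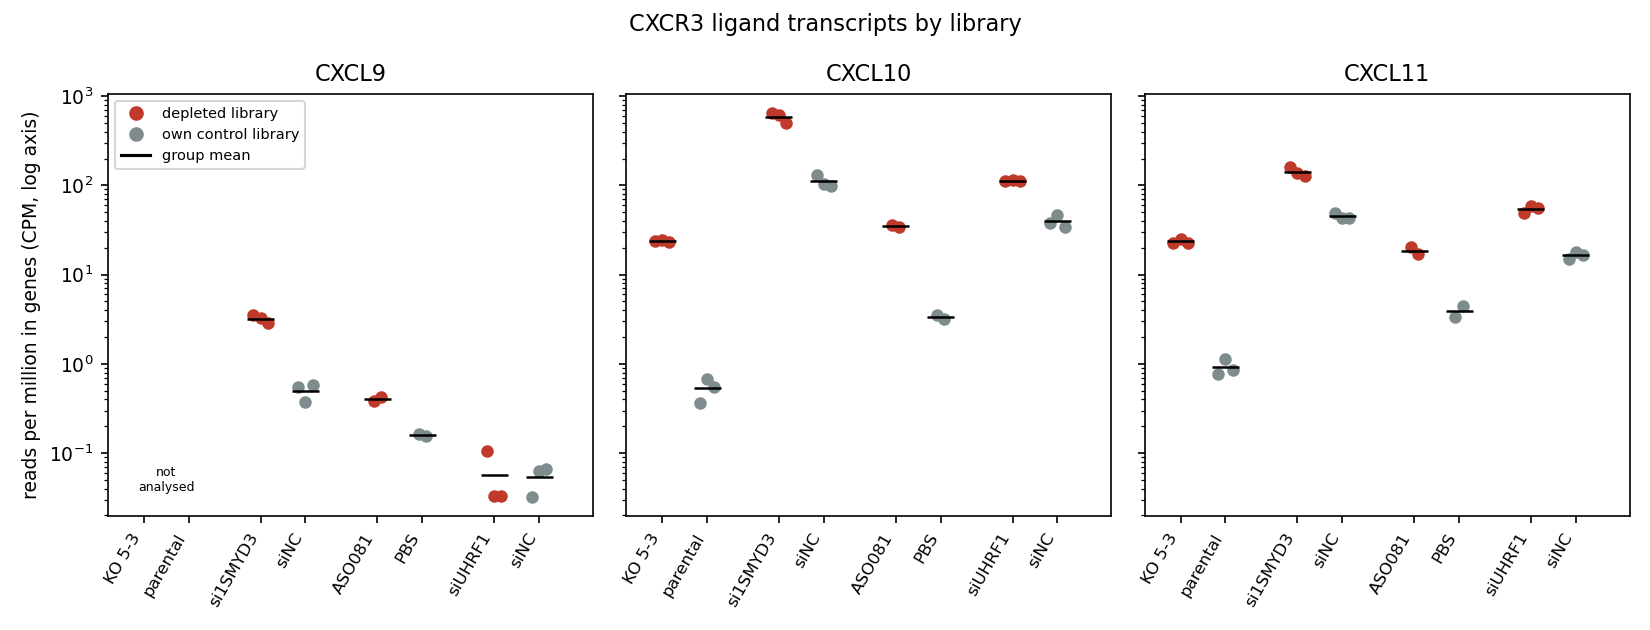
Levels of CXCL9, CXCL10 and CXCL11 in each library, in CPM on a log axis. Each point is 1 library, red for depleted cells and grey for their own controls, and the bar is the group mean. All depleted libraries stand above their own controls for CXCL10 and CXCL11, while the CXCL9 points with siUHRF1 and its siNC overlap.

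With the SMYD3 siRNA all 3 ligands were higher, from a much higher control level. CXCL9 had 3.53, 3.25 and 2.85 CPM with si1SMYD3, against 0.551, 0.370 and 0.573 CPM with siNC. CXCL10 had 653, 622 and 496 CPM with si1SMYD3, against 131, 104 and 98.8 CPM with siNC. CXCL11 had 162, 139 and 126 CPM with si1SMYD3, against 49.0, 43.3 and 42.6 CPM with siNC. The groups did not overlap for any of the 3 genes, which was also so in this direction for 19.2% of all genes tested. CXCL9 rested on 128 to 135 reads with si1SMYD3 and 12 to 31 with siNC. By edgeR's quasi-likelihood test CXCL9 was higher by a log2 fold change of 2.77 ± 0.19 (SE, adjusted p = 6.45e-08), rank 20 of 18966 genes. CXCL10 was higher by 2.54 ± 0.12 (adjusted p = 2.26e-09), at rank 28, and CXCL11 by 1.79 ± 0.09 (adjusted p = 3.81e-09), at rank 111. All 3 members were called higher, where 48.6% of genes were called in either direction, 24.2% were called higher and 3.21% were called higher by at least 1 on the log2 scale. Fibroblast markers summed to 219 to 246 CPM with si1SMYD3 and 143 to 164 CPM with siNC, with COL3A1 and DCN at most 0.609 and 0.549 CPM. T and natural killer cell markers summed to 10.9 to 11.8 CPM with si1SMYD3 and 7.80 to 9.001 CPM with siNC, most of it CD4, with NKG7 at 0. Endothelial markers summed to 6.65 to 7.24 CPM with si1SMYD3 and 12.8 to 15.6 CPM with siNC, with CDH5 at up to 13.4 CPM and PECAM1 at most 1.88 CPM. Their part in the chemokine result was not tested.

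With the SMYD3 ASO, CXCL10 had the largest rise of all genes tested in that comparison. It had 36.2 and 34.2 CPM with ASO081, against 3.56 and 3.18 CPM with PBS. CXCL11 had 20.2 and 16.8 CPM with ASO081, against 3.36 and 4.43 CPM with PBS. CXCL9 was scarce, with 12 and 13 reads with ASO081, against 5 reads in each PBS library. The ASO libraries were above the PBS libraries for all 3 genes, as they were for 21.6% of genes tested. CXCL10 was higher by a log2 fold change of 3.45 ± 0.10 (SE, edgeR adjusted p = 1.77e-10), rank 1 of 18233 genes. CXCL11 was higher by 2.31 ± 0.14 (adjusted p = 1.39e-07), at rank 8. CXCL9 passed the filter on low counts only through the ASO libraries, where it was higher, so its log2 fold change of 1.38 ± 0.48 is given as a description. Without that filter CXCL9 stood at 1.39 ± 0.55 and missed the threshold (edgeR adjusted p = 0.0731). CXCL10 and CXCL11 were called higher, where 21.7% of genes were called in either direction, 11.3% were called higher and 0.998% were called higher by at least 1 on the log2 scale. Myeloid markers summed to 15.0 to 15.2 CPM with ASO081 and 12.6 to 15.0 CPM with PBS, with CD163 at 0. Fibroblast markers summed to 91.8 to 110.2 CPM with ASO081 and 121 to 124 CPM with PBS, with COL3A1 and DCN at most 0.065 and 0.195 CPM. T and natural killer cell markers summed to 5.03 to 7.18 CPM with ASO081 and 7.28 to 7.43 CPM with PBS. The part of these lists in the ASO result was not tested.

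Depletion of UHRF1 also went with more CXCL10 and CXCL11, in an experiment that changed many genes. CXCL10 had 111, 116 and 113 CPM with siUHRF1, against 37.9, 46.6 and 34.5 CPM with siNC. CXCL11 had 49.0, 58.9 and 55.3 CPM with siUHRF1, against 14.9, 17.8 and 16.5 CPM with siNC. The groups did not overlap for either gene, as for 29.8% of genes tested in this direction. CXCL11 was higher by a log2 fold change of 1.80 ± 0.07 (SE, edgeR adjusted p = 1.78e-28), rank 392 of 18349 genes, and CXCL10 by 1.58 ± 0.08 (adjusted p = 2.57e-12), at rank 532. The 2 genes tested were both called higher, where 64.7% of genes were called in either direction, 32.0% were called higher and 7.42% were called higher by at least 1 on the log2 scale. CXCL9 had 6, 2 and 2 reads with siUHRF1, against 2, 4 and 4 reads with siNC, and fell under the filter on low counts. These reads overlapped, and a CXCL9 difference was not detectable from so few reads. Fibroblast markers summed to 490 to 560 CPM with siUHRF1 and 122 CPM in every siNC library, up to 536 CPM of it COL1A1, with COL3A1 and DCN at most 0.0695 and 0.0323 CPM. Endothelial markers summed to 22.04 to 23.4 CPM with siUHRF1 and 8.26 to 9.16 CPM with siNC, with CDH5 at up to 18.0 CPM and PECAM1 at most 0.420 CPM. Myeloid markers summed to 25.7 to 25.8 CPM with siUHRF1 and 19.3 to 21.1 CPM with siNC. CSF1R reached 16.2 CPM of it and ITGAM 9.95 CPM, while CD14 reached at most 1.55 CPM and CD163 was at 0. T and natural killer cell markers were lower, at 1.32 to 1.76 CPM with siUHRF1 and 2.07 to 3.62 CPM with siNC. The part of these lists in the chemokine result was not tested.

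**Figure D2:**
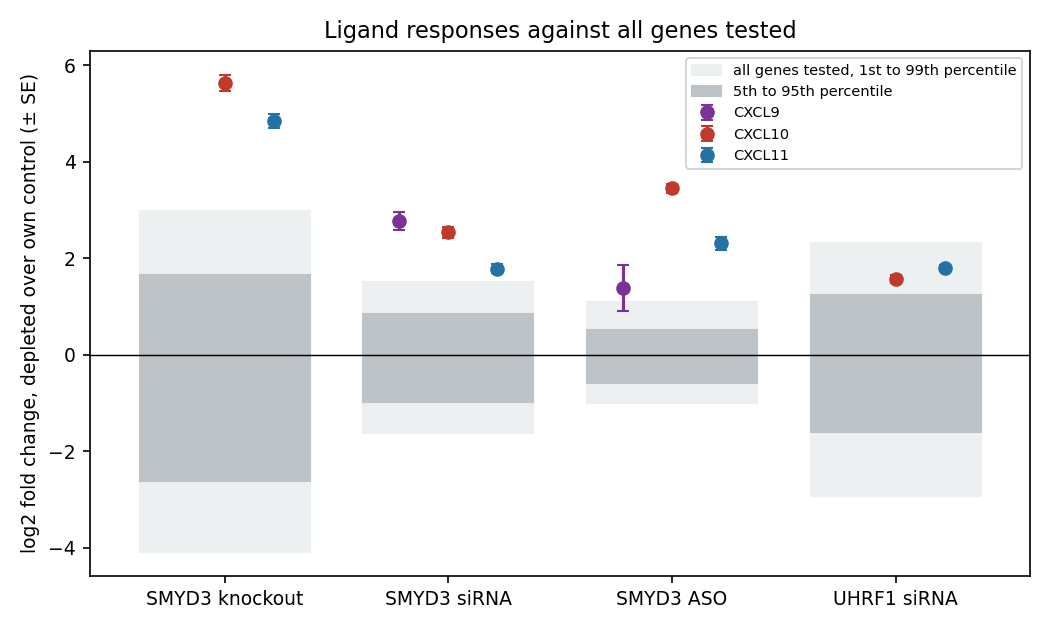
Log2 fold changes of the ligands in each comparison, depleted cells over their own controls, with bars for the SE of the fit. Grey boxes give the 5th to 95th and pale boxes the 1st to 99th percentile of all genes tested. CXCL10 and CXCL11 lie above the pale box in the 3 SMYD3 comparisons and inside it with siUHRF1.

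The responses differed in size between the perturbations. For pairs of count tables the difference was tested as an edgeR contrast over 16 libraries. CXCL10 rose more with the ASO than with the SMYD3 siRNA (siRNA minus ASO -0.90 ± 0.22 log2 units, adjusted p = 0.00274) and more with the SMYD3 siRNA than with the UHRF1 siRNA (0.95 ± 0.15, adjusted p = 1.74e-05). The CXCL10 response to the ASO exceeded that to the UHRF1 siRNA by 1.86 ± 0.22 (adjusted p = 5.46e-07). CXCL11 responded by nearly the same amount to the SMYD3 and the UHRF1 siRNA, with a difference of -0.01 ± 0.12 log2 units (adjusted p = 0.943). The CXCL11 response to the ASO exceeded that to the UHRF1 siRNA by 0.50 ± 0.18 (adjusted p = 0.0204), and that to the SMYD3 siRNA was lower than that to the ASO (-0.51 ± 0.18, adjusted p = 0.0223). Those last 2 calls were lost without ASO081 replicate 1 (0.37 and -0.38) or without PBS replicate 1 (0.30 and -0.31). For CXCL9 the SMYD3 siRNA minus the UHRF1 siRNA response came out at 2.66 ± 0.72 (adjusted p = 0.00247). CXCL9 had at most 6 reads in a UHRF1 table library and fell under the filter on low counts there. It entered this contrast through libraries of the other experiments, so the difference is a description. The SMYD3 siRNA and ASO responses of CXCL9 differed by 1.39 ± 0.66 (adjusted p = 0.0988), which missed the threshold, and the ASO and UHRF1 siRNA responses by 1.27 ± 0.84 (adjusted p = 0.221). Of the 9 differences tested, 6 were called, with the CXCL9 difference between the SMYD3 and UHRF1 siRNA among them. Over all genes, 37.9% (SMYD3 siRNA and ASO), 54.7% (SMYD3 and UHRF1 siRNA) and 51.7% (ASO and UHRF1 siRNA) were called in these pairs.

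Against the knockout the same differences were tested with limma on log2(CPM + 1) over all 22 libraries, a scale that understates changes from low control levels. The CXCL10 response in the knockout clone exceeded that to the SMYD3 siRNA by 1.63 ± 0.14 log2 units, that to the ASO by 1.03 ± 0.16 and that to the UHRF1 siRNA by 2.58 ± 0.14. The CXCL11 response in the knockout clone exceeded them by 2.06 ± 0.13, 1.75 ± 0.15 and 2.07 ± 0.13. The adjusted p was 1.53e-06 or less for each of the 6. In these pairs 77.8%, 74.6% and 81.7% of all genes had a called difference.

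The control level of CXCL10 differed widely between the 4 experiments. The 4 tables were made separately, so control levels between them are a description. CXCL10 averaged 0.533 ± 0.161 CPM in parental cells, 3.37 ± 0.266 CPM with PBS, 39.7 ± 6.25 CPM with the siNC of the UHRF1 experiment and 111 ± 17.3 CPM with the siNC of the SMYD3 experiment (SD, n = 3, 2, 3 and 3). The log2 fold changes over those controls were 5.64, 3.45, 1.58 and 2.54. The 2 largest rises were thus over the 2 lowest control levels, and the order was not kept between the siRNA experiments. The mean CXCL10 level in both siNC groups was above the means in the knockout clone (23.9 CPM) and with ASO081 (35.2 CPM), although 1 siNC library of the UHRF1 experiment, at 34.5 CPM, was below 1 ASO081 library, at 36.2 CPM. On the log2(CPM + 1) scale the control means of CXCL10 spanned 6.16 units, rank 14 of 12962 genes tested in every table, and those of CXCL11 spanned 4.57 units, rank 87. The median span of all genes was 1.03. All control groups had been given IFN-β. The table, the transfection and the control reagent cannot be told apart.

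Per transcript length, CXCL10 was the most abundant of the ligands analysed in 7 of the 8 groups. In RPKM, which is CPM per kilobase of exon, with si1SMYD3, CXCL10 averaged 502 ± 70.8, CXCL11 74.6 ± 9.46 and CXCL9 1.17 ± 0.125, against 94.6 ± 14.7, 23.6 ± 1.84 and 0.182 ± 0.0406 with siNC (SD, n = 3 each). In parental HN-6 cells CXCL10 and CXCL11 were level, at 0.454 ± 0.137 and 0.482 ± 0.103 RPKM (SD, n = 3). The ratio of CXCL10 to CXCL11 within a library does not depend on how libraries are scaled. Its log2 value was 0.72 ± 0.04 in the knockout clone and -0.12 ± 0.23 in parental cells, 2.75 ± 0.10 with si1SMYD3 and 2.00 ± 0.11 with siNC (SD, n = 3 each). It was 1.63 ± 0.13 with ASO081 and 0.50 ± 0.39 with PBS (SD, n = 2 each). It was 1.76 ± 0.10 with siUHRF1 and 1.97 ± 0.18 with siNC (SD, n = 3 each). In the 3 SMYD3 comparisons every depleted library had a higher ratio than every control, and with siUHRF1 the groups overlapped.

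The change in the ratio was 0.83 log2 units in the knockout clone and 0.75 with si1SMYD3 (exact two-sided permutation p = 0.1 each, the smallest that 3 against 3 allows). It was 1.13 with the ASO (exact permutation p = 0.333, the smallest that 2 against 2 allows) and -0.21 with siUHRF1 (exact permutation p = 0.2). With CXCL9 over CXCL10 and CXCL9 over CXCL11 in the SMYD3 siRNA and ASO tables, 8 ratios were tested, and the adjusted p was 0.267 at the lowest. CXCL9 over CXCL11 changed by 1.05 log2 units with si1SMYD3 (exact permutation p = 0.1) and by -0.91 with the ASO (exact permutation p = 0.333). CXCL9 over CXCL10 changed by 0.30 with si1SMYD3 (exact permutation p = 0.4) and by -2.04 with the ASO (exact permutation p = 0.333). The ASO ratios with CXCL9 rest on 12 and 13 CXCL9 reads with ASO081 and 5 in each PBS library, so they are descriptions. Whether the change in the CXCL10 to CXCL11 ratio differed between the 4 comparisons was not tested.

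**Figure D3:**
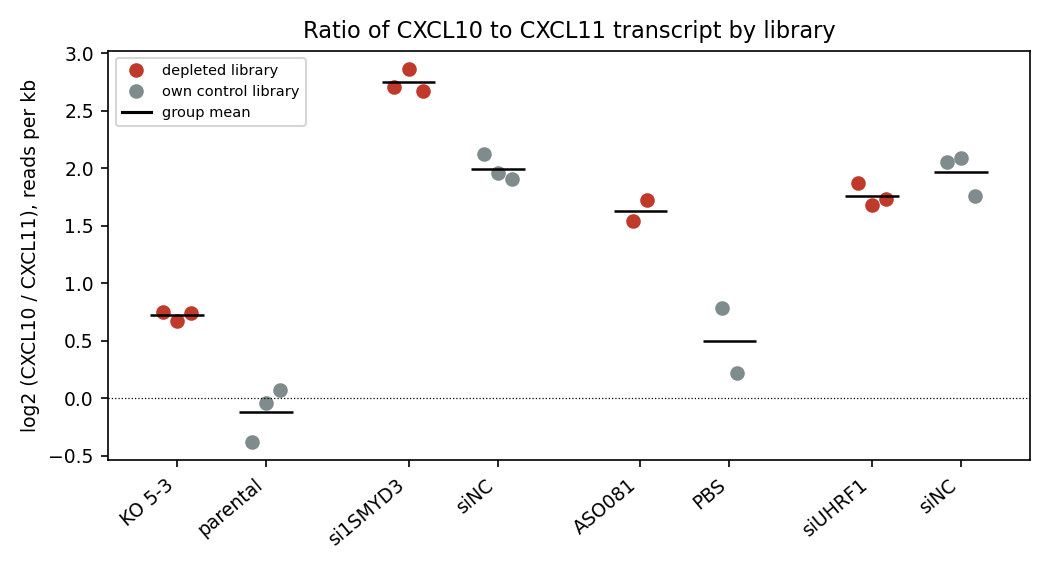
Log2 ratio of CXCL10 to CXCL11 in each library, from reads per kilobase of exon. Points are libraries, red for depleted cells and grey for their own controls, and bars are group means. The ratio is higher in depleted cells in the 3 SMYD3 comparisons, by 0.83, 0.75 and 1.13, and differs by -0.21 with siUHRF1.

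The receptor side of the axis was almost silent in these cells. CXCR3 had 0 to 6 reads per library in the tables used for it, and PF4, a platelet chemokine that also binds a form of CXCR3, had 0. DPP4, the protease that trims the N terminus of these ligands and weakens their action on CXCR3, was expressed throughout. DPP4 averaged 31.1 ± 0.453 CPM in the knockout clone and 22.5 ± 0.444 CPM in parental cells, 75.2 ± 4.71 CPM with si1SMYD3 and 43.5 ± 3.20 CPM with siNC, and 75.2 ± 4.76 CPM with siUHRF1 and 50.7 ± 2.01 CPM with siNC (SD, n = 3 each). It was called higher in these 3 comparisons, with log2 fold changes of 0.66 ± 0.05 (limma adjusted p = 1.2e-08), 0.92 ± 0.07 (edgeR adjusted p = 2.59e-07) and 0.64 ± 0.05 (edgeR adjusted p = 4.69e-15). With ASO081 DPP4 averaged 44.9 ± 1.70 CPM and with PBS 46.3 ± 1.16 CPM (SD, n = 2 each; log2 fold change 0.02 ± 0.06, edgeR adjusted p = 0.832). ACKR3, a scavenger receptor for CXCL11, averaged 0.0419 ± 0.0419 CPM in the knockout clone and 0.550 ± 0.0962 CPM in parental cells (SD, n = 3 each). ACKR3 had at most 23 reads per library and passed the filter on low values only through the parental libraries, so this difference is a description.

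Among genes that carry the inducing signal, more were called higher than lower in each comparison. Of 28 listed inducers, 20 were tested in the knockout comparison, with 16 higher and 3 lower and a median log2 fold change of 0.62, against -0.02 for all genes tested. With si1SMYD3 11 of 23 were higher and 1 lower (median 0.33, against -0.02), with the ASO 13 of 22 were higher and 1 lower (median 0.27, against 0.00), and with siUHRF1 17 of 23 were higher and 2 lower (median 0.51, against -0.01). Over all genes tested, 42.1% were called higher in the knockout clone, 24.2% with si1SMYD3, 11.3% with the ASO and 32.0% with siUHRF1. Among the inducers called, 1 in the knockout clone, 1 with si1SMYD3, 1 with the ASO and both lower ones with siUHRF1 passed the filter on low values in only 1 of the 2 groups. IRF1, a transcription factor that binds ISRE-like sites, was called higher in all 4, by 0.44 ± 0.04 in the knockout clone, 0.48 ± 0.09 with si1SMYD3, 0.46 ± 0.06 with the ASO and 0.78 ± 0.05 with siUHRF1 (adjusted p of 0.000306 or less). Upper quartile scaling of the recovered knockout reads shifted the median of all genes by -0.28, and IRF1 then stood at 0.16.

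IRF9, a DNA-binding factor of type I interferon signalling, did not move in 1 direction, and its control level differed between experiments for a reason that was not tested. It averaged 222 CPM in parental cells and 39.0 CPM with PBS. It averaged 22.4 and 25.3 CPM with the siNC of the SMYD3 and of the UHRF1 experiment. It was lower in the knockout clone (-0.16 ± 0.03, limma adjusted p = 0.000458), at -0.19 ± 0.11 and not called with si1SMYD3 (edgeR adjusted p = 0.175; -0.30 and 0.0242 without si1SMYD3 replicate 1), and higher with the ASO (0.43 ± 0.06, adjusted p = 0.0003) and with siUHRF1 (0.36 ± 0.07, adjusted p = 8.49e-06). IFIH1, which encodes the double-stranded RNA sensor MDA5, was higher by 2.01 ± 0.13 in the knockout clone, by 1.24 ± 0.06 with the ASO and by 1.18 ± 0.05 with siUHRF1 (adjusted p of 2.86e-05 or less), and stood at 0.18 ± 0.08 and not called with si1SMYD3 (edgeR adjusted p = 0.0702). NFKB1, which encodes a subunit of NF-kB, was higher by 2.31 ± 0.05 in the knockout clone, by 0.98 ± 0.09 with si1SMYD3 and by 0.26 ± 0.07 with the ASO (adjusted p of 0.0137 or less), and stood at -0.09 ± 0.05 and not called with siUHRF1 (edgeR adjusted p = 0.117). TNF, a cytokine that activates NF-kB, averaged 4.85 ± 0.243 CPM in the knockout clone and 1.18 ± 0.0247 CPM in parental cells (SD, n = 3 each; log2 fold change 2.20 ± 0.14, limma adjusted p = 8.43e-10). TNF was also called higher with the ASO (0.56 ± 0.16, edgeR adjusted p = 0.0262) and with siUHRF1 (0.51 ± 0.05, adjusted p = 4.4e-12), and stood at -0.10 ± 0.15 and not called with si1SMYD3 (adjusted p = 0.626). IFNL1, a type III interferon, averaged 0.642 ± 0.402 CPM with ASO081 and 0.0953 ± 0.00243 CPM with PBS (SD, n = 2 each). It had at most 29 reads per library and passed the filter only through the ASO libraries, and its call there (log2 fold change 2.77) was lost without ASO081 replicate 1 (1.94, edgeR adjusted p = 0.0801).

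Negative regulators of the pathway were listed as 9 brakes, all tested in all 4 comparisons. In the knockout clone 4 were higher and 5 lower (median -0.27), with si1SMYD3 7 were higher and 0 lower (median 0.56), with the ASO 5 were higher and 1 lower (median 0.31), and with siUHRF1 7 were higher and 2 lower (median 0.67). The medians over all genes tested were -0.02, -0.02, 0.00 and -0.01. The 4 of 9 called higher in the knockout clone stand beside 42.1% of all genes, the 7 with si1SMYD3 beside 24.2%, the 5 with the ASO beside 11.3% and the 7 with siUHRF1 beside 32.0%. USP18, an interferon-induced inhibitor of the type I receptor, was higher by 2.56 ± 0.11 in the knockout clone, by 0.52 ± 0.09 with si1SMYD3 and by 1.60 ± 0.06 with the ASO (adjusted p of 0.000168 or less), and lower with siUHRF1 (-0.17 ± 0.05, edgeR adjusted p = 0.00258). TNFAIP3, an inhibitor of NF-kB signalling, was higher by 2.29 ± 0.05 in the knockout clone, by 1.51 ± 0.10 with si1SMYD3, by 0.42 ± 0.06 with the ASO and by 0.76 ± 0.05 with siUHRF1 (adjusted p of 0.000615 or less). PIAS1, a SUMO ligase that restrains cytokine signalling, was lower in the knockout clone (-1.10 ± 0.05, limma adjusted p = 5.95e-12) and with siUHRF1 (-0.25 ± 0.06, edgeR adjusted p = 0.000194), and its values of 0.00 with si1SMYD3 and -0.04 with the ASO missed the threshold (adjusted p = 0.989 and 0.68). PRDM1, a transcriptional repressor, was higher by 0.72 ± 0.11 in the knockout clone, by 0.88 ± 0.08 with si1SMYD3 and by 2.08 ± 0.09 with siUHRF1 (adjusted p of 2.69e-05 or less), and at 0.00 ± 0.12 with the ASO (edgeR adjusted p = 0.993).

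**Figure D4:**
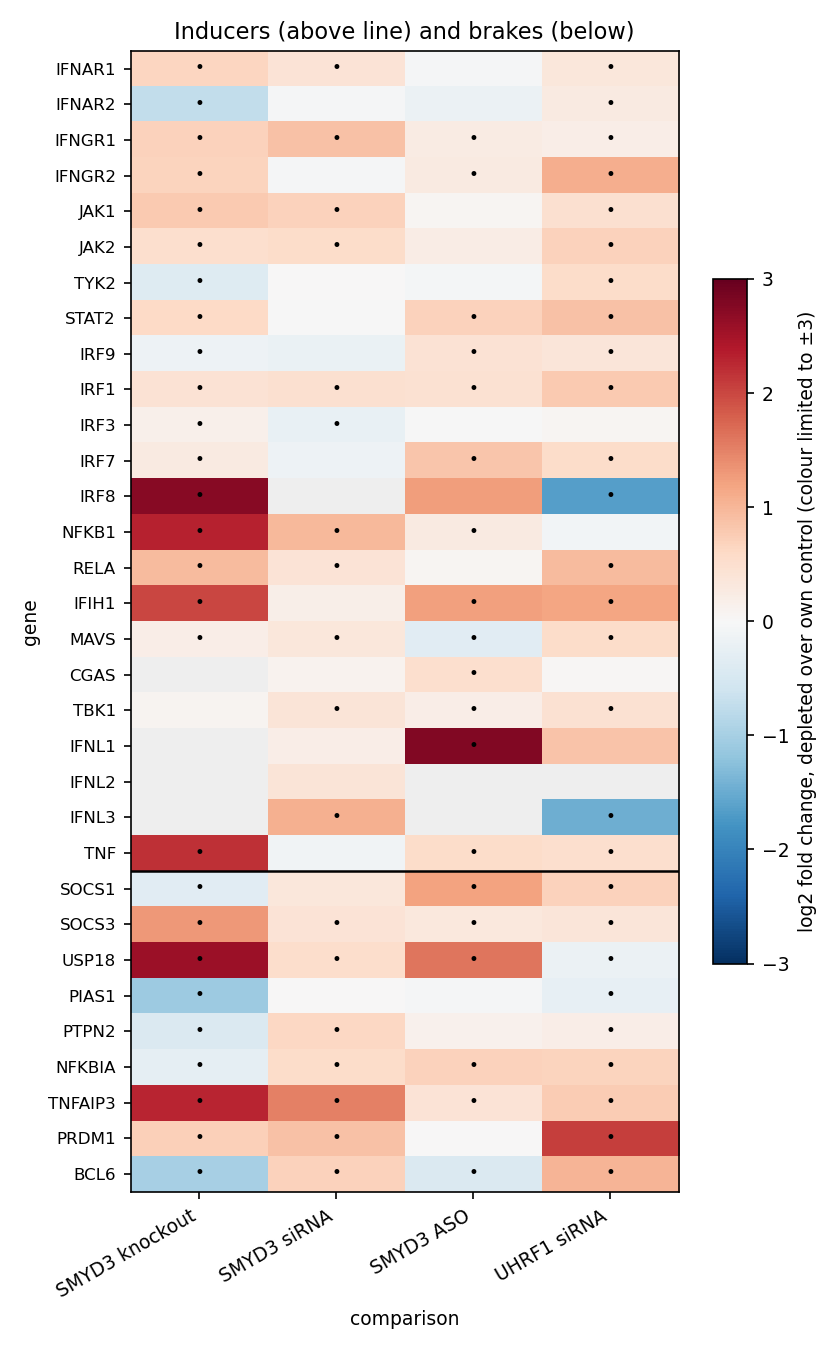
Log2 fold changes of listed inducers (above the line) and brakes (below), depleted cells over their own controls, with colour limited to 3 in either direction. Dots mark genes past the adjusted p threshold of 0.05 and pale grey cells were not tested. IRF1 is red and dotted in all 4 columns, and IRF9 is not.

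Of 11 repressive chromatin genes, which include both targets, 6 were higher and 4 lower in the knockout clone, 1 higher and 4 lower with si1SMYD3, 5 higher and 1 lower with the ASO, and 3 higher and 6 lower with siUHRF1. The medians were 0.14, -0.02, 0.15 and -0.39, against -0.02, -0.02, 0.00 and -0.01 for all genes. In either direction, 10, 5, 6 and 9 of the 11 were called, where the shares over all genes were 84.6%, 48.6%, 21.7% and 64.7%. The 5 calls with si1SMYD3 became 3 without si1SMYD3 replicate 3, siNC replicate 2 or siNC replicate 3, and the 6 with the ASO became 2 without ASO081 replicate 2. EZH2, the H3K27 methyltransferase known to silence CXCL9 and CXCL10 in ovarian and colon cancer, was lower with siUHRF1, at 29.7 ± 2.14 CPM with siUHRF1 and 112 ± 8.83 CPM with siNC (SD, n = 3 each; log2 fold change -1.85 ± 0.06, edgeR adjusted p = 1.37e-31). In the knockout clone EZH2 was lower by a smaller amount (-0.19 ± 0.04, limma adjusted p = 0.00123). Its calls with si1SMYD3 (-0.19 ± 0.07, edgeR adjusted p = 0.0451) and with the ASO (0.22 ± 0.06, edgeR adjusted p = 0.0228) pointed in opposite directions. The si1SMYD3 call was lost in DESeq2, without the low-count filter and without each of 5 single libraries, and the ASO call without ASO081 replicate 2 or PBS replicate 1. DNMT1, the maintenance DNA methyltransferase that UHRF1 recruits, was higher in the knockout clone (0.91 ± 0.04, limma adjusted p = 3.61e-12) and lower with siUHRF1 (-0.78 ± 0.05, edgeR adjusted p = 2.71e-18). Its values with si1SMYD3 (0.06 ± 0.09) and with the ASO (0.00 ± 0.08) missed the threshold (edgeR adjusted p = 0.635 and 0.993).

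Within 500 kb of the block, 28 other genes are annotated, and 13 to 15 of them were tested per comparison. In the knockout clone 9 of 13 were higher and 2 lower (median 0.70, against -0.02 for all genes), with si1SMYD3 9 of 15 were higher and 1 lower (median 0.40, against -0.02), with the ASO 3 of 15 were higher and 0 lower (median 0.04, against 0.00; 1 called without PBS replicate 1), and with siUHRF1 8 of 14 were higher and 1 lower (median 0.20, against -0.01). In either direction, 84.6%, 48.6%, 21.7% and 64.7% of all genes tested were called in these comparisons, and 42.1%, 24.2%, 11.3% and 32.0% were called higher. The 11 of 13 neighbours called in the knockout clone are thus the same share as over all genes. FAM47E, 1 of the 2 called lower there, passed the filter on low values only through the parental libraries, where it was higher. ART3, the gene that encloses CXCL10 and CXCL11 on the other strand, had at most 15 reads in any library of the SMYD3 siRNA table. It passed the filter there only through the si1SMYD3 libraries, and the call of its log2 fold change of 1.09 was lost in DESeq2 (1.11, adjusted p = 0.118). SDAD1, whose nearer edge lies 10.3 kb from CXCL9, was at 86.3 ± 3.63 CPM in the knockout clone and 49.1 ± 1.76 CPM in parental cells (SD, n = 3 each). It was called higher in all 4 comparisons. The log2 fold change was 1.01 ± 0.05 in the knockout clone (limma adjusted p = 1.78e-11). It was 0.35 ± 0.07 with si1SMYD3 (edgeR adjusted p = 0.000644) and 0.17 ± 0.05 with siUHRF1 (edgeR adjusted p = 0.0036). With the ASO, where CXCL10 was higher by 3.45, SDAD1 was at 0.18 ± 0.06 (edgeR adjusted p = 0.0468), a call lost in DESeq2 (0.19, adjusted p = 0.118) and without ASO081 replicate 2 or PBS replicate 1 (0.14 each). SCARB2, a lysosomal membrane receptor gene 117.3 kb away, was called higher in all 4, by 0.91 ± 0.04 in the knockout clone, 0.84 ± 0.08 with si1SMYD3, 0.29 ± 0.05 with the ASO and 0.14 ± 0.05 with siUHRF1 (adjusted p of 0.0115 or less). NUP54, a nuclear pore gene 73.2 kb away, was lower with siUHRF1 (-1.30 ± 0.06, edgeR adjusted p = 3.13e-27), where both ligands were higher. NUP54 was called higher in the knockout clone (0.70 ± 0.05, limma adjusted p = 6.32e-09) and with the ASO (0.24 ± 0.06, edgeR adjusted p = 0.0104). The ASO call was lost without PBS replicate 1 (0.21). With si1SMYD3 NUP54 stood at 0.10 ± 0.07 and was not called (edgeR adjusted p = 0.263). ODAPH, 435.4 kb away, was higher by 1.94 ± 0.08 with siUHRF1 (edgeR adjusted p = 2.4e-27), beside 1.80 for CXCL11 and 1.58 for CXCL10.

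**Figure D5:**
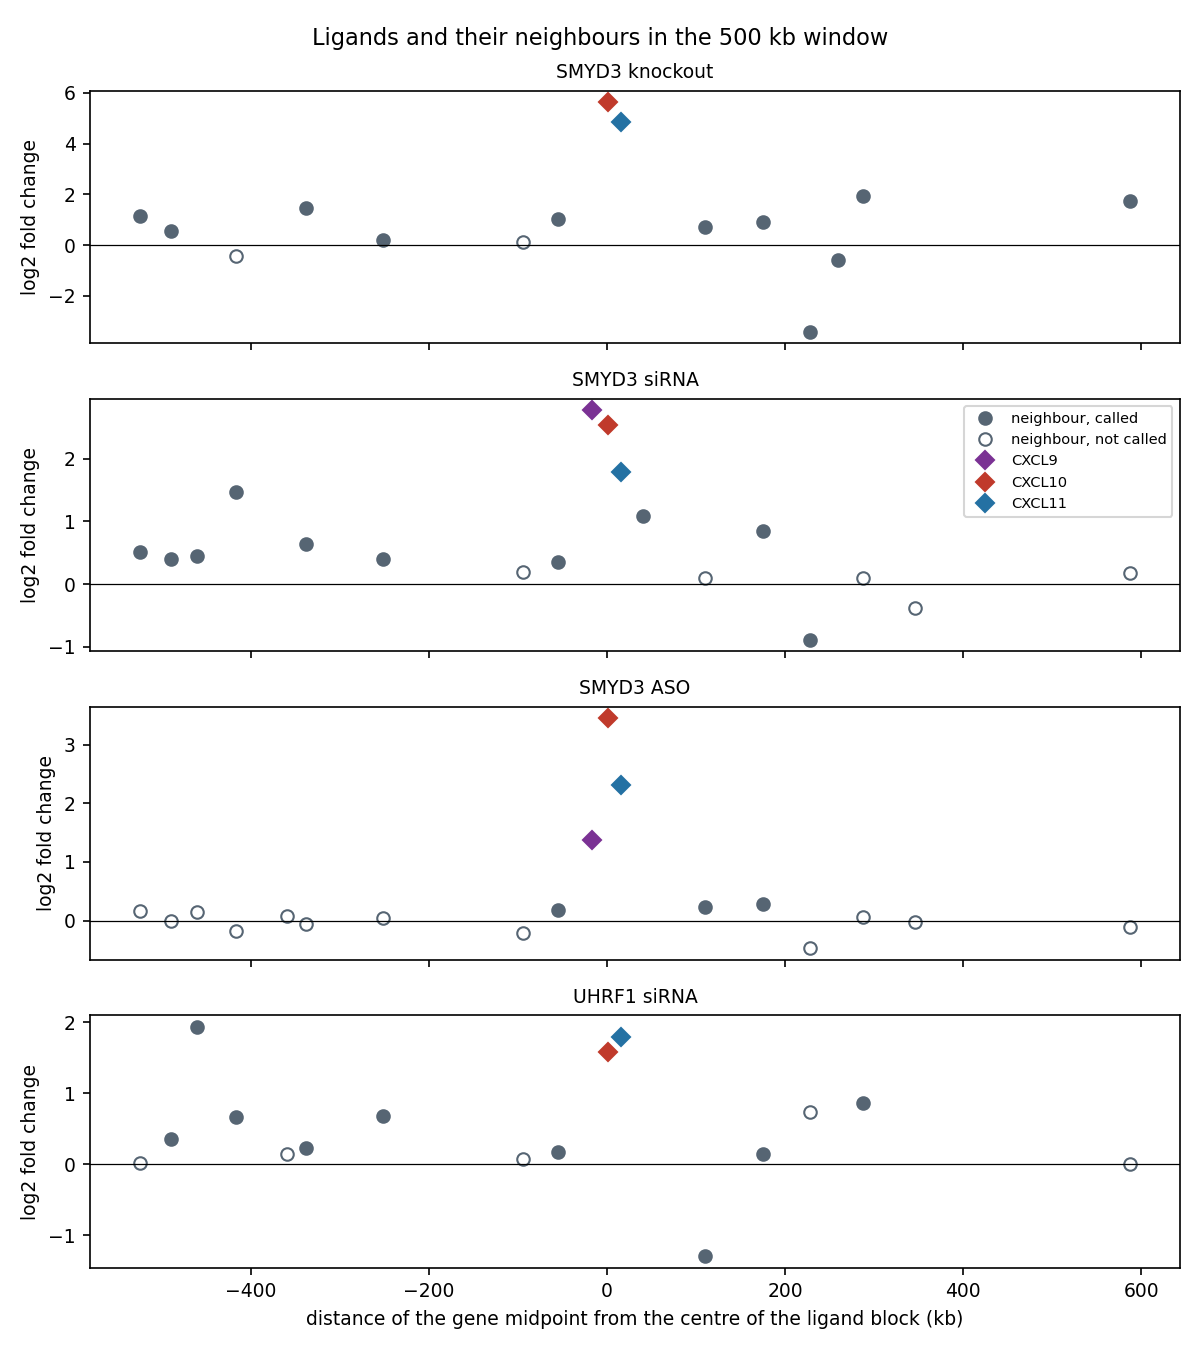
Log2 fold changes of the ligands (diamonds) and of other genes in the 500 kb window (circles, filled where called), against the distance of each gene's midpoint from the centre of the ligand block in kb. Each panel is 1 comparison with its own vertical scale. With the ASO CXCL10 and CXCL11 stand at 3.45 and 2.31, above every neighbour tested. CXCL9, drawn at 1.38, was not called there and passed the filter on low counts only through the ASO libraries.

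Genes of like pattern were ranked by the Pearson correlation of log2(CPM + 1), taken relative to the control mean of the same table. The points share groups and tables, so the values are descriptions. Over 22 libraries and 12961 other genes, CXCL10 was most like TNFSF13B, which encodes the B cell cytokine BAFF (r = 0.978), then TDRD7 (0.974), CXCL11 (0.972), TRIM5, a retroviral restriction factor (0.967), and CXCL1, a neutrophil chemokine (0.966). CXCL11 was most like TDRD7 (0.994), DTX3L (0.987), TNFSF10, which encodes the death ligand TRAIL (0.984), TRIM5 (0.984) and GBP5, an interferon-induced GTPase (0.981), with CXCL10 at rank 11. CXCL9, over the 16 libraries of 3 tables and 14853 genes, was most like the noncoding RNA LUCAT1 (r = 0.991), FLG-AS1 (0.983), SLC2A3, a glucose transporter (0.983), SCARB2 (0.982) and NT5C2 (0.981). CXCL10 came at rank 1592 (r = 0.622) and CXCL11 at rank 2207 (r = 0.503). LUCAT1 had log2 fold changes of 2.21 with si1SMYD3, 0.26 with the ASO and 0.05 with siUHRF1, while CXCL10 had 2.54, 3.45 and 1.58. On this scale CXCL9 varied mainly between the si1SMYD3 libraries and the rest, where it was below 1 CPM.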

How the data were processed

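Of the 4 tables, 3 hold counts per gene as deposited (SMYD3 siRNA, ASO and UHRF1 siRNA). The deposited values of the knockout comparison are a signal, which are gene counts over a scaling factor for each library. The step between values in each column gave whole reads for 100% of values (within 0.01), used for CPM and for an alternative test. The submitters' processing notes name hg38, bcl2fastq and Bowtie. Versions, the counting tool, its strand setting and the annotation were not given in the sources used here. Lines without a symbol, 23588 for the SMYD3 siRNA, held 0.849% to 0.917% of its reads. Lines with the same symbol were summed. Columns of other samples were not found.

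Counts were tested with edgeR 4.0.16 (TMM, filterByExpr, robust quasi-likelihood F-test). A count test was planned for tables of counts, and the knockout table was tested with limma 3.58.1 (trend, robust) on log2(value + 1), for genes at 10 or more in at least 3 libraries. Differences between effects used edgeR on 16 libraries, or limma on log2(CPM + 1) for genes at 1 CPM in at least 2 libraries. Tests were two-sided with Benjamini-Hochberg adjustment over all genes tested, and "called" means an adjusted p under 0.05. RPKM used the exon lengths deposited with the ASO counts. Single ratios used exact permutation over libraries. Alternatives were DESeq2 1.42.0, other factors, filters, pseudocounts, mitochondrial genes left out, a replicate block and each library left out. The methods were tested on simulated data. R was 4.3.3, Python 3.11.15 and SciPy 1.17.1. Mitochondrial genes had 0 reads in the ASO and UHRF1 siRNA tables. Leaving them out was thus no alternative for those comparisons, and in the knockout fit it could not change the log2 fold change of another gene.

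Named genes were set by a rule: the ligands, the targets, per list and comparison the 4 called genes that changed most, DPP4, IRF1, IRF9, EZH2 and DNMT1, and the 5 genes of most similar pattern. A gene that this rule names is not reported here. SDAD1, ART3, SCARB2 and the motif matches were also followed across comparisons after their values were seen. The members and lists were chosen with earlier results of these data known.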

Additional observations from a re-analysis of the deposited data

Results flagged for a closer look

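Responses of the same ligand differed between perturbations in 12 tested differences, and these were singled out because the test of the difference itself passed. Those not called were CXCL11 between the SMYD3 and UHRF1 siRNA, and CXCL9 in the pairs of the ASO with either siRNA. Among all genes tested, a difference was called for 37.9% to 54.7% in pairs without the knockout and 74.6% to 81.7% in pairs with it. For CXCL10, the SMYD3 siRNA response minus the ASO response was -0.90 log2 units, the SMYD3 siRNA minus the UHRF1 siRNA response 0.95 and the ASO minus the UHRF1 siRNA response 1.86. The knockout response of CXCL10 exceeded that to the SMYD3 siRNA by 1.63, to the ASO by 1.03 and to the UHRF1 siRNA by 2.58. For CXCL11, the SMYD3 siRNA minus the ASO response was -0.51 and the ASO minus the UHRF1 siRNA response 0.50. Both calls were lost without ASO081 replicate 1 (-0.38 and 0.37) or without PBS replicate 1 (-0.31 and 0.30). The knockout response of CXCL11 exceeded the same 3 responses by 2.06, 1.75 and 2.07. For CXCL9, the SMYD3 siRNA minus the UHRF1 siRNA response was 2.66, where CXCL9 had at most 6 reads in a library of the UHRF1 siRNA experiment. CXCL9 fell under the filter on low counts in that experiment and entered the contrast through the other libraries, so this difference is a description. Each table was made separately, so the perturbation and the table cannot be told apart in these differences.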

How the results depend on the processing

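CXCL10 and CXCL11 kept their direction and their call in all 4 comparisons under every alternative run, with log2 fold changes of 5.03 to 5.83 and 4.47 to 5.01 in the knockout clone, 2.46 to 2.66 and 1.73 to 1.88 with si1SMYD3, 3.39 to 3.52 and 2.12 to 2.55 with the ASO, and 1.48 to 1.71 and 1.73 to 1.87 with siUHRF1. CXCL9 with si1SMYD3 did so too, at 2.63 to 2.89. With the ASO it ranged from 1.31 to 1.46 with adjusted p of 0.0326 to 0.239, and DESeq2 gave it no adjusted p. Apart from the fit without a low-count filter, these rest on a filter that CXCL9 passed only through the ASO libraries. Without a low-count filter, CXCL9 with siUHRF1 stood at 0.13 ± 1.35 (edgeR adjusted p = 0.965).

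The labels tie replicate numbers to no shared day, and the numbers were not taken to pair libraries. In the SMYD3 siRNA and ASO sets, though, the library numbers in the titles place control and treated libraries of the same replicate number side by side. The correlations of the deviations of same-numbered libraries were 0.014, 0.054 and -0.081 in the knockout table, 0.233, 0.232 and -0.014 with si1SMYD3, 0.108 and 0.108 with the ASO, and -0.006, 0.01 and 0.008 with siUHRF1. With 2 libraries a group the ASO values must be equal. In the 3 tables with 3 libraries a group, not every library correlated best with its own number. With si1SMYD3 the correlations between other numbers ran from -0.29 to 0.11. With a replicate block, 6773 genes were called with the ASO, against 3948 without it, and CXCL9 was called (1.39, edgeR adjusted p = 0.0326). The block changed no other call of a ligand. DESeq2 called 2433 genes with the ASO.

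Leaving out 1 library moved the CXCL11 difference between the SMYD3 siRNA and ASO responses from -0.74 to -0.31, that between the ASO and UHRF1 siRNA responses from 0.30 to 0.73 and that between the SMYD3 and UHRF1 siRNA responses from -0.09 to 0.06, with either sign. The CXCL9 difference ranged from 1.01 to 2.01 between the ASO and UHRF1 siRNA responses. It ranged from 2.39 to 3.39 between the SMYD3 and UHRF1 siRNA responses and from 1.25 to 1.51 between the SMYD3 siRNA and ASO responses. Values near 0 changed sign when single libraries were left out, for DNMT1 with si1SMYD3 (-0.02 to 0.15) and with the ASO (-0.10 to 0.12, and -0.02 with upper quartile factors), and for DPP4 with the ASO (-0.03 to 0.07). With log2(CPM + 0.1) the control spans ranked 10 for CXCL10 and 75 for CXCL11. CXCL9 had at most 13 reads in an ASO table library and 6 in a UHRF1 siRNA table library. The cause of these shifts was not tested.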
